A study of Mus musculus with 18 samples.

Results

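The rod phototransduction cascade was followed here through 9 genes, Gnat1, Gngt1, Pde6a, Pde6b, Pde6g, Cnga1, Cngb1, Sag and Rcvrn. A probe set was taken for a gene when the array's probe annotation gave that gene symbol alone, and this rule found 13 probe sets for the 9 genes among 45101 probe sets, and 9 of the 18194 genes that the array names in this way. Gngt1 had 4 probe sets, Pde6g had 2 and each of the other genes had 1.

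The 18 Affymetrix mouse genome expression arrays came from the RPE/choroid of male C57BL6/J mice, which the labels describe as 2 months old and the methods of the study as 6 to 8 weeks old. Injected eyes received 1 µL into the vitreous of dexamethasone (Dex, 10 µg in balanced salt solution), triamcinolone acetonide (TAA, 25 µg in balanced salt solution) or balanced salt solution alone (BSS), and eyes were collected on day 7 or on day 30, which gave 6 groups of 3 arrays labelled as biological replicates. The 4 animals of a group were reduced to the 3 RNA samples of highest quality (RNA integrity number of at least 7), and the amounts of the steroids differed, so that Dex and TAA are each set against BSS and not against each other. The methods state that the front of the eye, the retina and the outer muscle were dissected away, that RPE cells were released from the tissue by syringe, and that most of the choroid probably remained on the discarded sclera. The tissue is bulk, so fewer cells of a type and less RNA per cell cannot be told apart. Day 30 also differs from day 7 in the age of the mice and the time since injection, which cannot be told apart.

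Rods are the photoreceptors of dim light. In the dark, cGMP holds open a cation channel of the rod outer segment, made of Cnga1 and Cngb1. Light activates the visual pigment, which activates the G protein transducin (alpha subunit Gnat1, gamma subunit Gngt1), and transducin relieves the catalytic subunits of phosphodiesterase 6 (Pde6a and Pde6b) from their inhibitory subunit Pde6g, so that cGMP falls and the channel closes. Rod arrestin (Sag) then caps the activated pigment, and the calcium sensor recoverin (Rcvrn) restrains the kinase that prepares the pigment for arrestin. These proteins are known as products of photoreceptors, whose outer segments touch the RPE and are phagocytosed by it.

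The 250 bases before the annotated start were read for the members that the RefSeq promoter table (GRCm38.p6) held, and 5 of them are shown, 5′ to 3′ on the strand of the gene. Capitals mark the core letters bound by CRX, a photoreceptor homeodomain factor (TAATCC, or GGATTA where it lies on the opposite strand). The windows are chr1:87803430-87803679 on the plus strand for Sag, chr6:3993758-3994007 on the plus strand for Gngt1, chr5:108388123-108388372 on the plus strand for Pde6b, chr5:72642753-72643002 on the minus strand for Cnga1 and chr8:95306586-95306835 on the minus strand for Cngb1. Gnat1, Pde6g and Rcvrn are named without sequence, and the window of Pde6a was left out of the search without regard to its letters.
Sag: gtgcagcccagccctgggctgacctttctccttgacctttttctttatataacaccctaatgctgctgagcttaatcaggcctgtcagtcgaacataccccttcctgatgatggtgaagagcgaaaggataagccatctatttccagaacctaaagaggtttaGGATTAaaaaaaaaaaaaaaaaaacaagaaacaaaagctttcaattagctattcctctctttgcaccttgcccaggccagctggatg
Gngt1: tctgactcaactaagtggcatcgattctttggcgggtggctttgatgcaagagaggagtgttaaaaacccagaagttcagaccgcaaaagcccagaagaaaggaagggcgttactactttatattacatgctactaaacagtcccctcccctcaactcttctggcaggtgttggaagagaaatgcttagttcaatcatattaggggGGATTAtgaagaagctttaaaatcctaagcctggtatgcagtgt
Pde6b: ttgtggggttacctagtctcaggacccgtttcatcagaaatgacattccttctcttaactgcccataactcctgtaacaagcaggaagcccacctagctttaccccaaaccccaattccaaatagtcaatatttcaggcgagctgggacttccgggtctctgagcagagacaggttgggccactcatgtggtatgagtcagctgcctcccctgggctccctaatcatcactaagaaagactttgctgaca
Cnga1: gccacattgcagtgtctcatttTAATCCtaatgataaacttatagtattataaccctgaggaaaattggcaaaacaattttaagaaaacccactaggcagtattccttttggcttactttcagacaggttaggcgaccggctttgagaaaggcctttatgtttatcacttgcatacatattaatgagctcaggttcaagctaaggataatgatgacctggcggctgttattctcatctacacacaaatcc
Cngb1: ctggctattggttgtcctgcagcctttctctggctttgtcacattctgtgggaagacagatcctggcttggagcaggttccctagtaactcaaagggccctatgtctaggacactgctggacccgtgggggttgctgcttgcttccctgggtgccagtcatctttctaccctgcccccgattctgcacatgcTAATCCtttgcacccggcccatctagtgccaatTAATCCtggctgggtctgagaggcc
The CRX core occurred in 4 of the 5 windows shown, against 6.25% of 32851 promoter windows of the same length. It lay 87 to 82 bases before the start in Sag and 44 to 39 bases before it in Gngt1, both on the opposite strand. On the gene's own strand it lay 228 to 223 bases before the start in Cnga1, and in Cngb1 it occurred 58 to 53 and again 25 to 20 bases before it. Pde6b held no copy of these letters. The letters TGCTGA (or TCAGCA), part of the element bound by MAF family factors such as the rod factor NRL, occurred in 2 of the 5 windows, 187 to 182 bases before the start of Sag and 8 to 3 bases before that of Pde6b, against 16.1% of all windows. The search covered both strands of the 250 bases, the pair of motifs overlapped nowhere in these windows, and a match is a run of letters and not a measured binding site. A link between these letters and the differences between arrays was not tested.

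Values are log2 RMA expression, centred so that every probe set has a median of 0 across the arrays, and a value of 1 is a doubling relative to that median. Levels of different genes, and the presence of a tissue's defining markers, cannot be read from values on this scale. Median values of the arrays over all probe sets lay between -0.0443 and 0.0202, and no pair of arrays held identical values.

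The 9 genes were high on some arrays and low on others of the same group. The widest gap in their ordered averages, 1.37, left 8 arrays above it and 10 below, and 5 of the 6 groups had arrays on both sides. Averaged over the 9 genes, the Dex arrays of day 7 stood at 1.58, 1.89 and -0.32 (replicates 1, 2 and 3) and the TAA arrays at -0.38, -1.70 and 2.20, against -1.53, -0.99 and -0.61 on the BSS arrays. At day 30 the averages were -1.42, 0.21 and 3.68 on the Dex arrays and 2.69, 3.42 and -1.60 on the TAA arrays, against 3.89, -0.57 and 3.73 on the BSS arrays. Only the BSS arrays of day 7 were all below the gap. The gap lay between Dex replicate 1 of day 7 and Dex replicate 2 of day 30. Within a group the highest and lowest arrays differed 4.63-fold for Dex and 14.9-fold for TAA at day 7, against 1.89-fold for BSS, and 34.3-fold for Dex and 32.4-fold for TAA at day 30, against 21.9-fold for BSS.

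**Figure D1:**
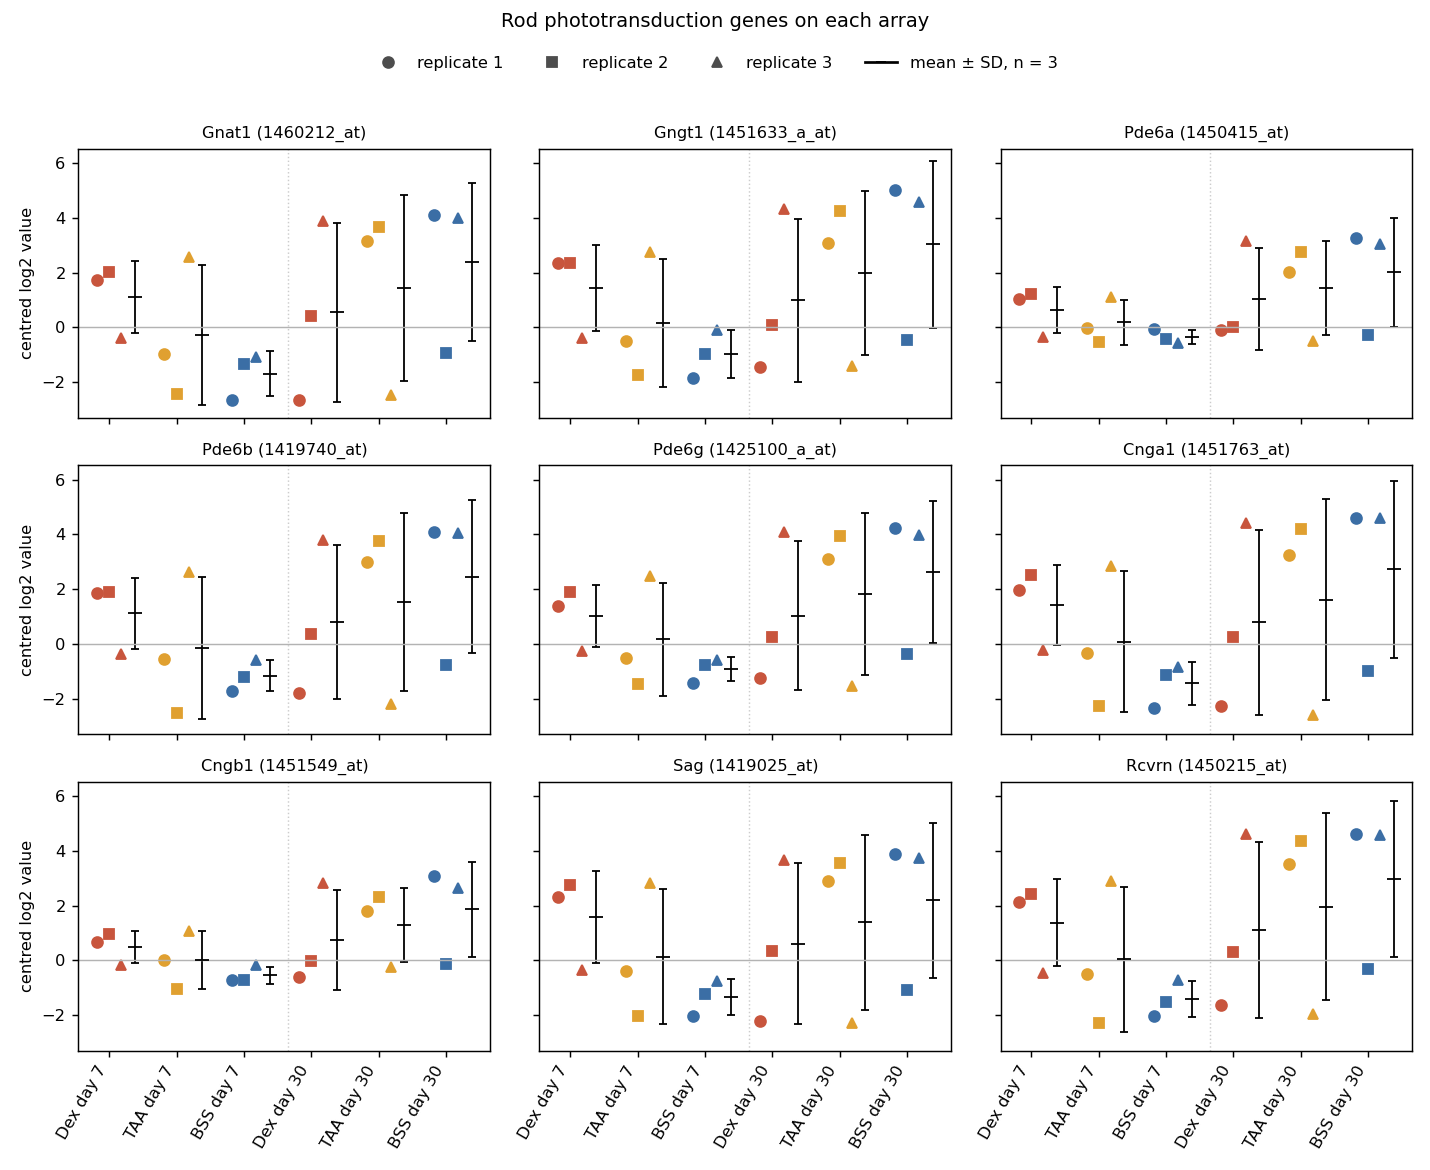
Centred log2 value (y axis) of each of the 9 genes on the 18 arrays, by treatment and day (x axis), with the probe set of widest range for each gene. Symbols mark replicates and black bars the mean ± SD (n = 3); the 3 arrays of a day 30 group lie 6.69 log2 apart for Cnga1 with Dex and 6.79 with TAA, against 5.59 with BSS.

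Transducin showed the pattern in both of the subunits that are members. On the Dex arrays of day 7, Gnat1 stood at 1.72, 2.03 and -0.40, and on the TAA arrays at -0.97, -2.45 and 2.55, against -2.65, -1.35 and -1.09 on the BSS arrays. The day 30 values were -2.68, 0.40 and 3.89 on the Dex arrays and 3.14, 3.65 and -2.46 on the TAA arrays, against 4.09, -0.96 and 3.99 on the BSS arrays. The Dex arrays of day 7 thus all lay above the BSS arrays of that day, with Dex replicate 3 nearest to them, and every other steroid group overlapped its BSS group. For Gngt1 (1451633_a_at) the day 7 arrays read 2.35, 2.34 and -0.39 with Dex and -0.52, -1.75 and 2.76 with TAA, against -1.86, -0.97 and -0.08 with BSS. At day 30 they read -1.45, 0.08 and 4.31 with Dex and 3.09, 4.25 and -1.43 with TAA, against 5.0, -0.48 and 4.58 with BSS. Here Dex replicate 3 of day 7 lay inside the BSS range. The Gngt1 probe sets 1425167_a_at and 1425219_x_at spanned 5.83 and 5.87 log2 over the 18 arrays, beside 6.86 for 1451633_a_at and only 1.10 for 1425168_at.

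The phosphodiesterase subunits followed the same arrays. Pde6b, whose loss causes rod degeneration in mice, stood at 1.85, 1.90 and -0.37 on the Dex arrays and -0.57, -2.53 and 2.63 on the TAA arrays of day 7, against -1.72, -1.20 and -0.59 on the BSS arrays. At day 30 it stood at -1.79, 0.37 and 3.80 with Dex and 3.0, 3.77 and -2.18 with TAA, against 4.09, -0.76 and 4.04 with BSS. Its high arrays were those on which Gnat1 was high. The other catalytic subunit, Pde6a, had a smaller span, with 1.01, 1.2 and -0.35 on the Dex arrays and -0.02, -0.53 and 1.09 on the TAA arrays of day 7, against -0.06, -0.41 and -0.57 on the BSS arrays. At day 30 Pde6a stood at -0.10, 0.02 and 3.17 with Dex and 2.02, 2.77 and -0.49 with TAA, against 3.26, -0.28 and 3.05 with BSS. The lowest array of Pde6a stood at -0.57, so most of its span came from the high arrays. The inhibitory subunit Pde6g (1425100_a_at) read 1.40, 1.90 and -0.25 with Dex and -0.50, -1.48 and 2.48 with TAA at day 7, against -1.43, -0.76 and -0.60 with BSS. At day 30 this probe set read -1.23, 0.25 and 4.07 with Dex and 3.10, 3.95 and -1.55 with TAA, against 4.25, -0.38 and 3.98 with BSS. Its second probe set, 1450453_a_at, spanned 4.14 log2, against 5.80 for the first.

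Both subunits of the cGMP-gated channel had the same high and low arrays. Cnga1, the subunit with the widest range of any member probe set (7.19 log2, or 146-fold), stood at 1.98, 2.51 and -0.23 on the Dex arrays and -0.33, -2.26 and 2.83 on the TAA arrays of day 7, against -2.34, -1.13 and -0.85 on the BSS arrays. On the day 30 arrays it stood at -2.28, 0.23 and 4.41 with Dex and 3.26, 4.18 and -2.61 with TAA, against 4.58, -1.01 and 4.58 with BSS. The 2 high BSS arrays of day 30 and the lowest TAA array of that day set its range. Cngb1 moved over 4.12 log2, with 0.66, 0.98 and -0.15 on the Dex arrays and 0.01, -1.04 and 1.08 on the TAA arrays of day 7, against -0.72, -0.73 and -0.18 on the BSS arrays. Its day 30 values were -0.59, -0.01 and 2.84 with Dex and 1.81, 2.32 and -0.24 with TAA, against 3.08, -0.14 and 2.66 with BSS.

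The genes of the shut-off proteins were high and low on the same arrays. Sag, the arrestin of rods, read 2.30, 2.77 and -0.34 on the Dex arrays and -0.39, -2.02 and 2.84 on the TAA arrays of day 7, against -2.03, -1.22 and -0.74 on the BSS arrays. At day 30 Sag read -2.20, 0.34 and 3.68 with Dex and 2.91, 3.55 and -2.29 with TAA, against 3.89, -1.07 and 3.75 with BSS. Within the BSS group of day 30 alone, replicates 1 and 3 thus stood far above replicate 2. Rcvrn read 2.15, 2.44 and -0.46 with Dex and -0.48, -2.30 and 2.90 with TAA at day 7, against -2.03, -1.51 and -0.70 with BSS. At day 30 Rcvrn read -1.63, 0.32 and 4.64 with Dex and 3.51, 4.35 and -1.96 with TAA, against 4.63, -0.32 and 4.59 with BSS. Its highest array was Dex replicate 3 of day 30, while that of 11 of the other 12 member probe sets was BSS replicate 1 of day 30.

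The pattern was shared down to the order of single arrays. For each pair of member genes, the share of the pairs of arrays that both genes put in the same order ranged over the 36 gene pairs from 86.3% (Gnat1 with Pde6a) to 99.3% (Sag with Cnga1), with a median of 94.4%. Set against the mean of the 9 genes, the corresponding share over all genes had a median of 43.8% and a 99th percentile of 87.6%. The arrays are common to all of these values, so the shares describe these 18 samples and carry no test.

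The spread between replicates was measured as the residual SD of limma's fit of the 6 group means (12 residual degrees of freedom). It ran from 0.334 log2 (Gngt1 1425168_at) to 2.73 log2 (Cnga1) over the 13 probe sets, with a median of 2.19, against a median of 0.159 over all probe sets. Apart from Gngt1 1425168_at, whose spread exceeded that of 91.7% of all probe sets, the lowest of the others, Cngb1, exceeded 99.4% and the highest, Cnga1, 99.97%. Differences within groups made up 62.4% (Pde6g 1450453_a_at) to 75.4% (Sag) of each member's variance over the 18 arrays, and the median over all probe sets was 72.0%. An F-test over the 6 groups in limma called 0 of the 13 (smallest adjusted p = 0.979, smallest unadjusted p = 0.165), against 0.0155% of all probe sets. The analysis of variance named in the methods called 0 of the 13 at an adjusted p under 0.05 (smallest unadjusted p = 0.277). At that threshold it also called 0 of all probe sets.

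**Figure D2:**
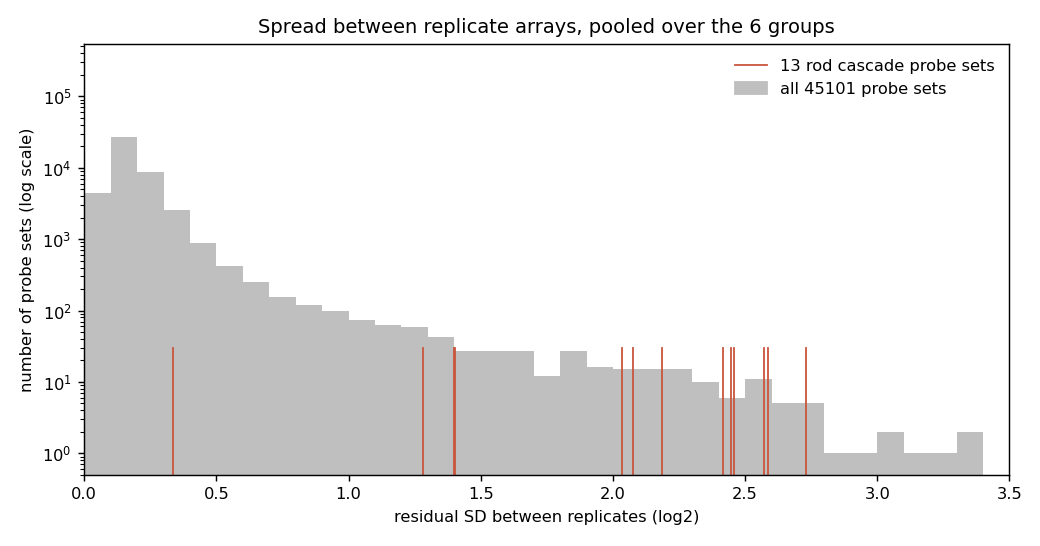
Residual SD between replicate arrays (x axis, log2) of all 45101 probe sets as a histogram with a log-scaled count (y axis), and of the 13 rod cascade probe sets as vertical lines. The lines lie between 0.334 and 2.73, whereas the median of all probe sets is 0.159.

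At day 7 the 9 genes averaged higher after either steroid, and none of the differences passed the test against the spread between replicates. With Dex the log2 fold changes of the genes ran from 0.97 (Pde6a) to 2.91 (Sag), with 9 of 9 positive and a median of 2.29, against 0.0022 over all genes. Sag averaged 1.58 ± 1.68 with Dex and -1.33 ± 0.66 with BSS (SD, n = 3 each), a log2 fold change of 2.91 with a standard error of 1.78 and a 95% interval of -0.88 to 6.69. Limma called 0 of 13 member probe sets at an adjusted p under 0.05 (smallest member adjusted p = 1.0, smallest unadjusted p = 0.123), and 0% of all probe sets. The study itself used an unadjusted p of at most 0.05 together with a fold change of at least 1.5, and by these thresholds limma also called 0 of 13, against 0.104% of all. All 3 Dex arrays lay above all 3 BSS arrays in 8 of the 13 probe sets (those of Cnga1, Cngb1, Gnat1, Pde6b, Rcvrn and Sag, and both of Pde6g), against 4.18% of all probe sets, and in 0 of 13 they lay all below, against 4.77%. The 13 probe sets order the arrays nearly alike, so these are not 8 separate observations, and 3 arrays against 3 allow no exact two-sided permutation p below 0.1. Where the spread was taken from fewer arrays the study's thresholds called some members, 5 of 13 (235 of all probe sets) with only the 9 arrays of day 7 in the fit and 7 of 13 (88 of all, or 0.195%) with the methods' t-test, and quantile normalization called 4 (229 of all). The smallest adjusted p of a member was 0.920 in the fit of the 9 arrays, 0.968 with the methods' t-test and 0.999 after quantile normalization.

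With TAA at day 7 the genes ranged from 0.53 (Pde6a) to 1.52 (Cnga1), again 9 of 9 positive, with a median of 1.11 against -0.00037 over all genes. The TAA group held the lowest average of all 18 arrays (replicate 2, -1.70) and another of 2.20 (replicate 3). Limma called 0 of 13 (smallest adjusted p = 0.996, smallest unadjusted p = 0.287), against 0.00222% of all probe sets, and 0 of 13 at the thresholds of the study, against 0.452%. The methods' t-test also called 0 of 13 at these thresholds, against 0.317% of all probe sets. Only Pde6g 1450453_a_at had all 3 TAA arrays above all 3 BSS arrays, against 4.55% of all probe sets, and 0 of 13 had them all below, against 6.26%. The median rested on single arrays, being 0.029 without TAA replicate 3 and 2.20 without TAA replicate 2.

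At day 30 the averages lay on the other side. With Dex the log2 fold changes ran from -1.93 (Cnga1) to -0.98 (Pde6a), with 0 of 9 positive and a median of -1.59 (-0.81 after quantile normalization), against 0.011 over all genes. Cnga1 averaged 0.79 ± 3.38 with Dex and 2.72 ± 3.23 with BSS (SD, n = 3 each), with a 95% interval of the difference of -6.13 to 2.27. With TAA the genes ran from -1.11 (Cnga1) to -0.57 (Cngb1), with a median of -0.93, against 0.012 over all genes, and 0 of 9 positive, although after quantile normalization Pde6a (0.0010) and Rcvrn (0.019) turned positive and the median was -0.084. Limma called 0 of 13 probe sets for Dex (smallest adjusted p = 0.999, smallest unadjusted p = 0.232) and 0 of 13 for TAA (smallest adjusted p = 1.0, smallest unadjusted p = 0.203), against 0% of all probe sets in each comparison. The thresholds of the study called 0 of 13 for Dex, against 0.477% of all, and 0 of 13 for TAA, against 0.175%, and with the methods' t-test they called 0 of 13 in each, against 0.0288% of all for Dex and 0.0266% for TAA. Although the averages lay below those of BSS, no member probe set had all 3 steroid arrays below all 3 BSS arrays, against 2.25% of all probe sets for Dex and 3.11% for TAA, and none had them all above, against 2.59% for Dex and 2.86% for TAA. Both comparisons share the BSS arrays, of which 2 were the highest of the study and replicate 2 was low.

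Single arrays of day 30 moved these values. Without BSS replicate 2, the median was -3.22 for Dex, with 6 of 13 called at the study's thresholds (1764 of all probe sets), and -2.43 for TAA, with 1 of 13 called (1114 of all). For Dex the median was -3.12 without Dex replicate 3, with 2 of 13 called (973 of all), -0.42 without Dex replicate 1, -0.79 without BSS replicate 1 and -0.87 without BSS replicate 3. The TAA median turned to 0.93 without TAA replicate 3. It was -0.073 without BSS replicate 1, -0.17 without BSS replicate 3, -1.56 without TAA replicate 1 and -1.88 without TAA replicate 2. No member passed an adjusted p of 0.05 in any steroid comparison when any 1 of the 18 arrays was left out.

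**Figure D3:**
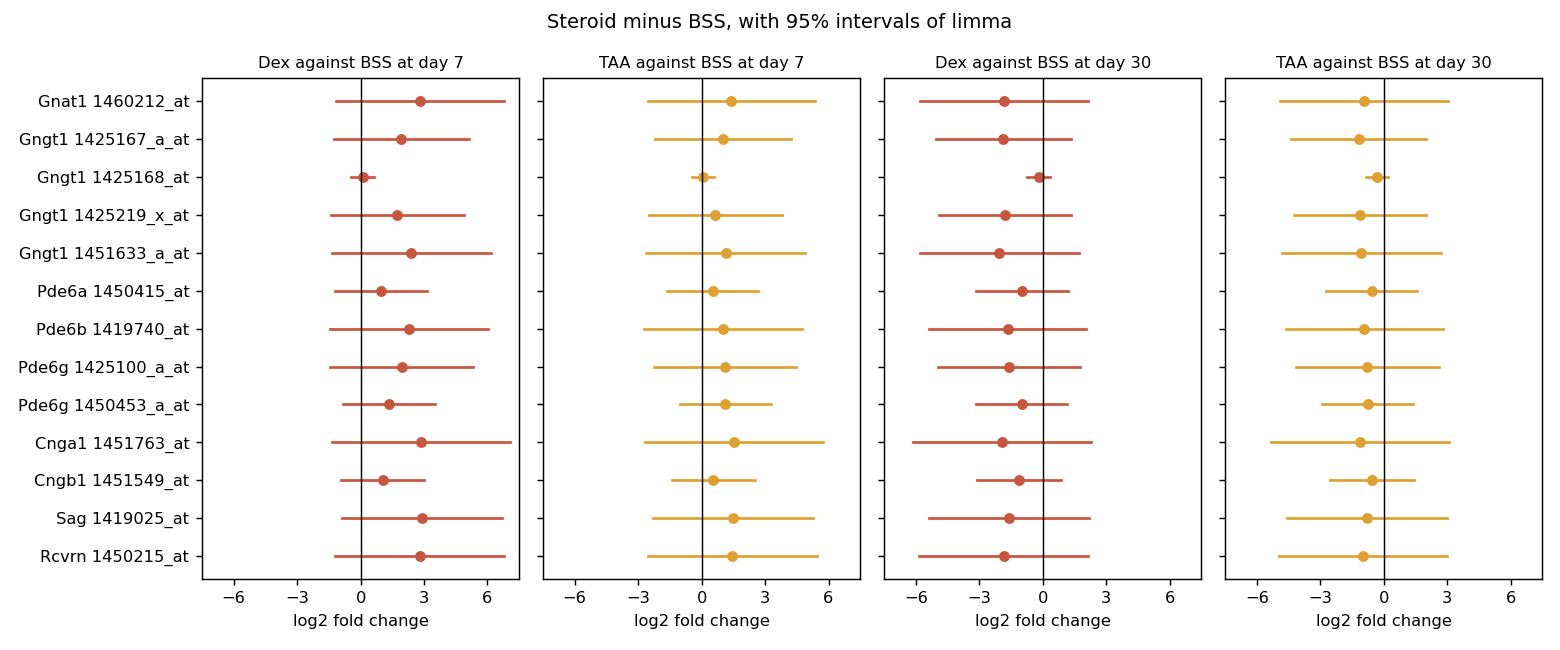
Log2 fold change of each steroid against BSS (x axis) for the 13 probe sets (y axis), with points for the estimate and lines for limma's 95% interval, at day 7 (left pair) and day 30 (right pair). Every interval includes 0, and that of Sag for Dex at day 7 runs from -0.88 to 6.69.

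The change of sign between day 7 and day 30 was tested as the difference between day 30 and day 7 in the steroid effect. Its median over the genes was -3.96 for Dex and -1.94 for TAA, and limma called 0 of 13 probe sets in either (smallest adjusted p = 1.0 for Dex and 0.994 for TAA, smallest unadjusted p = 0.0936 for Dex and 0.209 for TAA), against 0% of all. The study's thresholds called 0 of 13 for Dex, against 0.807% of all probe sets, and 0 of 13 for TAA, against 0.701%. For Dex the same thresholds called 13 of 13 without BSS replicate 2 of day 30 (2112 of all) and 12 without Dex replicate 3 of day 30 (1442 of all). For TAA they called 2 without BSS replicate 2 of day 30 (1782 of all). The TAA median ranged from -3.55 without that array to -0.43 without TAA replicate 3 of day 30, and lay at -3.13 and -0.92 without TAA replicates 2 and 3 of day 7, at -1.17 and -1.27 without BSS replicates 1 and 3 of day 30, and at -3.06 without TAA replicate 2 of day 30.

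Over all treatments the genes averaged higher at day 30 than at day 7, with 9 of 9 positive and a median log2 fold change of 1.6, against -0.016 over all genes. Rcvrn had the largest difference, 2.01 with a standard error of 1.08. Limma called 0 of 13 (smallest adjusted p = 0.296, smallest unadjusted p = 0.0256), against 0.399% of all probe sets, and the study's thresholds called 3 of 13, Pde6a, Cngb1 and Pde6g 1450453_a_at, all higher, against 0.958%. Of the 9 gene means limma called 0, against 0.429% of all genes. The count for the day over all treatments at the study's thresholds moved with single arrays. It was 11 without BSS replicate 2 of day 30 (956 of all probe sets) and without TAA replicate 3 of that day (807 of all), 7 without TAA replicate 3 of day 7 (630 of all), and 6 without Dex replicate 1 of day 30 (628 of all). It was 0 without Dex replicate 3 or TAA replicate 2 of day 7, and without BSS replicate 1, BSS replicate 3, Dex replicate 3 or TAA replicate 2 of day 30. After quantile normalization it was also 0, with a median of 0.89, and array weights gave 12 (919 of all probe sets) with 4 of 13 at an adjusted p under 0.05 (2409 of all). For the counts of 0, the calls over all probe sets are not given here. A loss particular to the members cannot be read from these counts.

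Within a treatment the median difference between the days was -0.27 with Dex and 1.32 with TAA, against 3.52 with BSS. These comparisons were not planned and were examined after their values were seen. The study's thresholds called 0 of 13 with Dex, against 0.381% of all probe sets, and 0 of 13 with TAA, against 0.716%. With BSS they called 9 of 13, all higher at day 30, against 3.07% of all probe sets. These were the probe sets of Gnat1, Pde6a, Cngb1 and Rcvrn, both of Pde6g and 3 of the 4 of Gngt1. The 13 probe sets order the arrays nearly alike, so these are not 9 separate observations. At an adjusted p under 0.05 limma called 0 of 13 with BSS (smallest adjusted p = 0.373, smallest unadjusted p = 0.0128), against 0.00222% of all. It also called 0 of 13 with Dex, against 0.00887%, and 0 of 13 with TAA, against 0.00222%. The BSS count rested on single arrays. It was 0 without BSS replicate 1 of day 30 (465 of all probe sets) and without BSS replicate 3 of that day (749 of all), 2 without BSS replicate 1 of day 7 (1122 of all) and without BSS replicate 2 of day 7 (1401 of all), and 5 without BSS replicate 3 of day 7 (1071 of all). Without BSS replicate 2 of day 30 it was 13 (3103 of all), and 3 of these passed the adjusted p (1820 of all). With Dex the median turned positive without Dex replicate 1 or 2 of either day and ran from -1.83 without Dex replicate 3 of day 30 to 0.96 without Dex replicate 1 of day 30, and with TAA it ran from 0.56 without TAA replicate 2 of day 30 to 3.09 without TAA replicate 3 of day 30. With TAA the median also lay at 0.65 without replicate 2 and 2.60 without replicate 3 of day 7, and without TAA replicate 3 of day 30 the study's thresholds called 3 of 13 (1056 of all).

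Many other genes of photoreceptors, though not all, were high and low on the same arrays. Of the 22 further genes of the rod outer segment and of rod gene control that were listed, 19 had a probe set of their own, and their mean put 96.7% of the array pairs in the order of the 9 members, over a range of 2.91 log2. Taken singly, the 19 genes gave a median of 88.2%, with 8 of them above 90%. They ran from 58.2% (Gucy2e, over 0.452 log2) to 98.0% (Tulp1, over 4.99 log2). Among them the transcription factor Nrl, which directs rod fate, had a range of 7.02 log2 and 97.4% of pairs in that order. The pigment kinase Grk1 had 2.12 log2 and 86.9%. Gnb1, the beta subunit of transducin, had only 0.938 log2 and 77.8%. Gucy2e, Tulp1 and Nrl were singled out after their values were seen. In every steroid comparison limma called 0 of the 19 at an adjusted p under 0.05, against 0.0055% of all genes for TAA at day 7 and 0% in the other comparisons. Their median log2 fold change was 0.41 for Dex and 0.49 for TAA at day 7, and -0.89 for Dex and -0.48 for TAA at day 30.

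Markers of other retinal cells followed the members to different degrees. The mean of 11 cone phototransduction genes, of which Grk1 and Guca1a are also in the rod list, ordered 96.7% of the pairs alike over 2.46 log2. The short-wave cone pigment Opn1sw had a range of 3.90 log2 but 81.7% of the pairs alike. For the middle-wave cone pigment Opn1mw these values were 3.96 log2 and 82.4%, and for Arr3 they were 1.83 log2 and 86.9%. Taken singly, the cone genes gave a median of 85.0%, and ran from 48.4% (Gngt2, a transducin gamma subunit of cones) to 96.7% (Pde6h). The 11 genes of the photoreceptor and bipolar synapse ordered 92.2% of the pairs alike over 2.41 log2, and the synaptic vesicle gene Syp had a range of 2.22 log2. Single genes of this list gave a median of 88.2%, with the bipolar cell channel Trpm1 lowest at 54.2%. The 13 genes of amacrine, horizontal and ganglion cells gave 85.6% over 1.71 log2, but single genes gave a median of 73.9% and ran from 33.3% (Rbpms) to 94.8% for the GABA-synthesizing enzyme Gad1, the only 1 of the 13 above 90%. For Muller glia the share was 61.4% over 1.26 log2, with a median of 57.5% for single genes and none of them above 90%. Vim (35.3%), Gfap (39.2%) and Rlbp1 (47.1%, also in the RPE list) lay near the median of all genes, 43.8%. Aqp4 (79.7%) and Abca8a (85.0%) lay well above it. The genes at the ends of these ranges and the Muller glia genes named here were singled out after their values were seen. The cone mean ranged from -0.24 to 0.56 on the Dex arrays and from -0.40 to 0.77 on the TAA arrays of day 7, against -0.35 to -0.24 on the BSS arrays, and from -0.47 to 1.57 with Dex and from -0.50 to 1.53 with TAA at day 30, against -0.28 to 1.96 with BSS. The synapse mean ranged from -0.19 to 0.86 with Dex and from -0.35 to 0.97 with TAA at day 7, against -0.52 to -0.34 with BSS, and from -0.32 to 1.42 with Dex and from -0.33 to 1.56 with TAA at day 30, against -0.13 to 1.89 with BSS. In the lists of cones, the synapse and the amacrine, horizontal and ganglion cells, as in the members, the BSS arrays of day 7 spread least and those of day 30 reached highest. Dex at day 7 gave a positive log2 fold change in 8 of 11 cone genes, 11 of 11 synapse genes and 11 of 13 amacrine, horizontal and ganglion cell genes, against 50.8% of all genes. TAA at day 7 did so in 8 of 11 cone genes, 10 of 11 synapse genes and 7 of 13 amacrine, horizontal and ganglion cell genes, against 49.8% of all. At day 30 the counts were 1 of 11, 1 of 11 and 2 of 13 for Dex, against 53.7% of all genes, and 1 of 11, 1 of 11 and 3 of 13 for TAA, against 54.3%. Limma called 0 genes of any of these lists in any steroid comparison. The part of retinal cells in the rod values was not tested.

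Single markers of the RPE and choroid ordered the arrays like the members in a median of 45.1% of pairs for RPE genes, 38.6% for melanocyte and pigment genes and 40.8% for choroidal endothelial genes, against 43.8% over all genes. The mean of 13 RPE genes had a range of 0.457 log2 and put 37.3% of the pairs in the order of the members. The RPE mean ranged from -0.020 to 0.032 on the Dex arrays and from 0.053 to 0.16 on the TAA arrays of day 7, against -0.17 to 0.17 on the BSS arrays, and from -0.11 to -0.036 with Dex and from -0.19 to 0.10 with TAA at day 30, against -0.29 to 0.080 with BSS. Single RPE genes had wider ranges than their mean, with a median of 0.618 log2 and extremes of 0.206 and 1.25 log2. Their shares of pairs ran from 25.5% to 68.6%. Among them Best1, a chloride channel of the RPE, had a range of 0.579 log2 and the RPE opsin Rgr a range of 0.400 log2. Melanocyte and pigment genes (7 genes) gave 37.3% over 0.70 log2, and choroidal endothelial genes (8 genes) 45.1% over 1.18 log2. Lens genes (10 genes) had a range of 4.22 log2, with 54.9% of the pairs in the members' order, and were highest on BSS replicate 3 of day 30. Skeletal muscle genes gave 51.0% over 1.05 log2, macrophage and microglial genes 33.3% over 1.17 log2, and red blood cell genes 24.8% over 0.730 log2.

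**Figure D4:**
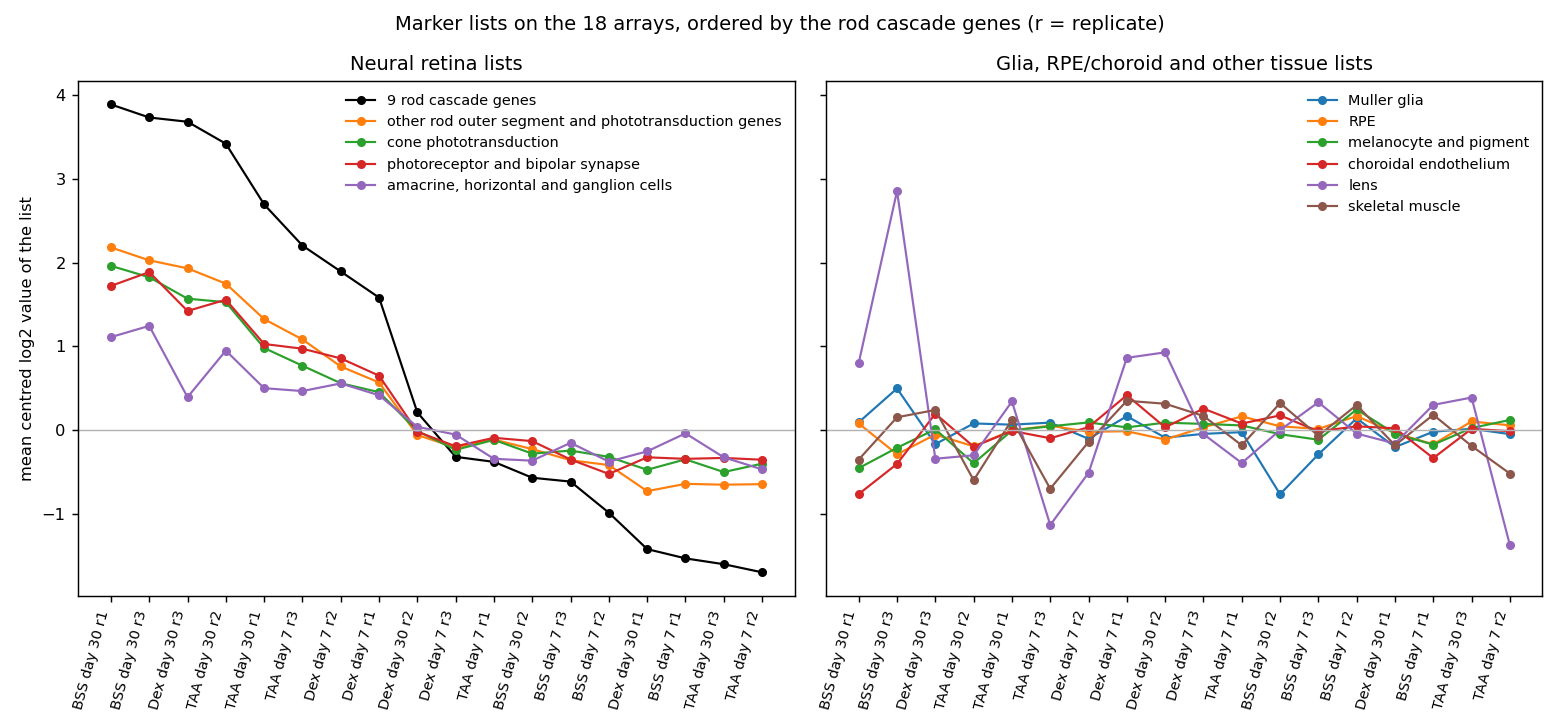
Mean centred log2 value of marker lists (y axis) on the 18 arrays, ordered along the x axis from the highest to the lowest average of the 9 rod cascade genes. The macrophage and microglial list and the red blood cell list are not drawn. The lists on the left fall along this order to different degrees. On the right, the RPE list has a range of 0.457 log2, the Muller glia list 1.26 log2 and the lens list 4.22 log2.

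The genes outside all lists whose order over the arrays was most like that of the members were Cacna2d4 (98.0% of the pairs of arrays), Crx (97.4%), Aipl1 (96.7%), Crb1 and Mir124-2hg (96.1% each), E130218I03Rik, Fscn2 and Rbp3 (95.4% each), and Kcnj14, Neurod1, Reep6, Rp1l1 and Slco4a1, which tied at 94.8% each. Crx, the homeodomain factor whose core letters are capitalized above, ran from -0.99 on TAA replicate 2 of day 7 to 3.55 on BSS replicate 1 of day 30. Aipl1, a chaperone of rod phosphodiesterase, had a range of 4.88 log2, and Cacna2d4, a calcium channel subunit, one of 3.65 log2.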

How the data were processed

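Total RNA of 18 RPE/choroid samples was hybridized to Affymetrix mouse genome expression arrays. The labels name a 2-cycle labelling protocol and the methods a 3′ IVT kit. The authors deposited log2 values after RMA, per the labels, and the methods name GeneSpring as the software. Every probe set has a median of 0 across arrays (largest departure 5e-07), so only differences between arrays were used, and no filter on dim probe sets or background correction could be tried. Probe sets were named from the platform's annotation table (34958 with 1 symbol, 932 with several, 9211 with none). A gene's value is the mean of its probe sets.

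Limma 3.58.1 in R 4.3.3 was fitted to all 45101 probe sets with 6 group means, and p-values were adjusted by the Benjamini-Hochberg method over all probe sets (over 18194 genes for gene means). Tests are two-sided. The number of arrays, 3 per group, limits the precision. The fit was tested on simulated data with normal noise drawn separately for each probe set. The members varied together over the arrays, so the simulation does not bear on spread that probe sets share. The named genes are all members, genes among the first 3 of each list and the 10 unlisted genes most like the members with all ties. Also named are genes shared between lists and genes singled out after their values were seen, as stated where they appear. The members and lists were chosen with earlier results of these data known, and Snap25 of the synapse list was also picked by the study. Some genes are not reported here. Alternatives were the replicate block, the methods' t-test and analysis of variance, fits within a day, a robust prior, array weights, median centring, quantile normalization, singly annotated probe sets, 1 probe set per gene and leaving out each array.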

Additional observations from a re-analysis of the deposited data

How the results depend on the processing

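The alternatives numbered 29, of which 18 leave out 1 array. The analysis of variance and the use of 1 probe set per gene added no values of single member probe sets. Of 2288 such values from the other alternatives, 2258 kept their direction and side of the threshold, 4 passed it newly and 26 turned direction. The 2258 are no measure of robustness. Leaving out an array of a group outside a comparison cannot change its log2 fold change, and no member passed the adjusted p in the main fit. Of the 26, 12 came from TAA at day 30 without TAA replicate 3 of that day. At the study's thresholds, Dex at day 7 called 5 of 13 with the 9 arrays of that day, 4 after quantile normalization and 7 with the methods' t-test, against 0. Day 30 against day 7 called 12 with array weights and 0 after quantile normalization, against 3, and array weights also called 4 at an adjusted p under 0.05 (Gngt1 1425168_at, Pde6a, Pde6g 1450453_a_at and Cngb1; 2409 of all probe sets, against 180). The difference between days in the Dex effect called 1 with array weights (1383 of all probe sets) and 1 after quantile normalization (286 of all). Day 30 against day 7 within a treatment, examined after its values were seen, called with array weights 13 for BSS (2870 of all), with 4 at the adjusted p (3234 of all), and 1 for TAA (836 of all), and after quantile normalization 6 for BSS (730 of all), against 9 for BSS and 0 for TAA. Quantile normalization turned TAA at day 30 to 0.0010 for Pde6a and 0.019 for Rcvrn. The cause of these changes was not tested.

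With each array left out, counts at the study's thresholds ran from 0 to 6 for Dex and 0 to 1 for TAA at day 30, 0 to 11 for the day, 0 to 13 for the day within BSS (0 to 3 at the adjusted p), 0 to 3 within TAA, 0 to 13 for the difference between days in the Dex effect and 0 to 2 for that in the TAA effect. Median log2 fold changes ran from 1.91 to 3.04 for Dex and 0.029 to 2.20 for TAA at day 7, from -3.22 to -0.42 for Dex and -2.43 to 0.93 for TAA at day 30, and from 1.09 to 2.04 for the day, and the median residual SD from 1.91 to 2.28. Probe sets that turned direction had these ranges of log2 fold change. Dex at day 30 gave -0.53 to 0.014 (Gngt1 1425168_at). TAA at day 7 gave -0.012 to 2.49 (Gnat1 1460212_at), -0.068 to 1.65 (Gngt1 1425167_a_at), -0.0035 to 0.16 (Gngt1 1425168_at), -0.47 to 1.49 (Gngt1 1425219_x_at), -0.16 to 2.09 (Gngt1 1451633_a_at), -0.38 to 2.20 (Pde6b 1419740_at) and -0.061 to 1.92 (Pde6g 1425100_a_at). TAA at day 30 gave -2.43 to 1.04 (Sag 1419025_at), -2.60 to 1.02 (Gnat1 1460212_at), -2.66 to 0.32 (Gngt1 1425167_a_at), -2.56 to 0.36 (Gngt1 1425219_x_at), -2.82 to 0.63 (Gngt1 1451633_a_at), -1.73 to 0.38 (Pde6a 1450415_at), -2.54 to 0.93 (Pde6b 1419740_at), -2.28 to 0.91 (Pde6g 1425100_a_at), -1.90 to 0.16 (Pde6g 1450453_a_at), -2.97 to 1.0 (Cnga1 1451763_at), -1.57 to 0.20 (Cngb1 1451549_at) and -2.64 to 0.97 (Rcvrn 1450215_at).

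The replicate numbers of the labels tie no samples together, and deviations of same-numbered arrays correlated between -0.69 and 0.25, above 0.1 in 4 of 12 pairs. With the replicate number as a block, 0 of 13 were called in each steroid comparison at either threshold. At the study's thresholds 43 of all probe sets were then called for Dex and 200 for TAA at day 7, and 185 for Dex and 76 for TAA at day 30. The day comparison called 0 of 13 at the adjusted p (98 of all probe sets, against 180 without the block) and 3 of 13 at the study's thresholds (375 of all, against 432 without it). The deposited values are centred, so signal over background is unknown and no filter on dim probe sets was run. With 3 arrays a group, a difference in Cnga1 had a 95% interval of 4.2 log2 to either side.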
